A study of Mus musculus with 6 samples.

Results

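The genes described here move chloride, sodium and water across the lining of the fetal lung. They were 9 named genes, namely the sodium channel subunits Scnn1a, Scnn1b and Scnn1g, the chloride channels Cftr and Ano1, the cotransporter Slc12a2, the sodium pump subunit Atp1b1 and the water channels Aqp1 and Aqp4. Every probe set annotated to exactly 1 of these genes was taken, which gave 19 of 45037 probe sets and 9 of 18193 named genes. Embryonic mouse lungs, microdissected whole at stage E16.5 (counted in embryonic days), were profiled on single-channel Affymetrix expression arrays. The tested embryos were Hopx -/- (called Hopx-null, n = 3) and the controls were Hopx +/+ (called wild-type, n = 3), all on a mixed strain background. No other allele or treatment is named in the labels. The labels call the samples biological replicates, but they do not say whether a sample was 1 lung or a pool, how the null allele was made or whether the embryos were littermates.

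Fetal lung epithelium fills the future airspaces with liquid. The Slc12a2 cotransporter loads chloride into the cell across the basolateral membrane, chloride leaves through apical channels such as Cftr and Ano1, and sodium and water follow. Around birth the epithelium turns from secretion to absorption: sodium enters through the epithelial sodium channel ENaC, built from the Scnn1a, Scnn1b and Scnn1g subunits, and is pumped out by the sodium pump, of which Atp1b1 is the beta subunit. Aqp1 is the water channel of small blood vessels and red cells, and Aqp4 that of the basolateral membrane of airway epithelium. Hopx is a small homeodomain protein that does not bind DNA itself and marks type I alveolar cells.

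The samples bore out their labels and tissue with the following reservations. Hopx itself fell at each of its probe sets, with log2 differences (Hopx-null minus wild-type) of -5.94 (SE 0.17) and -1.91 (SE 0.11) and adjusted p = 0.000375 and 0.0228 (limma, Benjamini-Hochberg over all probe sets). The second of these calls was lost without Hopx-null replicate 2 or 3 or wild-type replicate 2 or 3 (limma, adjusted p from 0.103 to 0.413), and also with a replicate block or a Y-linked covariate, while its log2 difference stayed between -1.84 and -2.01 in these fits. At that probe set (1428662_a_at), the brightest of Hopx, Hopx-null lungs still read 10.35 to 10.64, against 12.26 to 12.50 in wild-type lungs. Signal there stayed above the upper quartile of all probe sets (9.02). At the other (1451776_s_at) they read 4.59 to 4.96, against 10.41 to 10.96 in wild-type lungs. Sftpc, the surfactant gene of type II cells, read from 13.7 to 13.8 on the log2 scale in all 6 lungs, and the lung epithelial factor Nkx2-1 from 7.38 to 7.82. Y-linked genes read 9.24 and 9.12 (log2 mean of 3 genes) in wild-type replicates 2 and 3, and from 2.47 to 2.57 in the 3 Hopx-null lungs and wild-type replicate 1. Hopx-null replicate 3 had the largest gap between 3' and 5' control probe sets (1.51 for actin, against 1.15 to 1.25 in the other lungs). No gene of the cell type marker lists passed. The largest median log2 difference of a list was -1.24 for cartilage, with 8 of 10 genes lower in Hopx-null lungs, followed by -0.40 for neural and Schwann cells. Medians were 0.15 for type I cells, 0.10 for type II cells, -0.15 for airway and -0.07 for general epithelium. They were 0.04 for mesenchyme, 0.03 for smooth muscle, 0.12 for mesothelium, 0.06 for blood endothelium and -0.07 for erythroid cells. The remaining medians were 0.08 for immune cells, 0.09 for cardiac muscle and 0.06 for oesophagus, liver and thyroid.

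None of the liquid and ion transport genes passed the test. Of their 19 probe sets 0 passed limma (eBayes, Benjamini-Hochberg threshold 0.05), where 0.00444% of all probe sets passed, and 0 had an unadjusted p under 0.05, where 4.77% of all probe sets did. The probe sets that passed were the 2 of Hopx alone, so no other gene on the array was called either. Adjusted p-values of the 19 ran from 0.878 to 0.991 (limma). Hopx-null and wild-type lungs overlapped at all 19 probe sets, whereas they did not overlap at 10.1% of all probe sets. By the brightest probe set of each gene, 5 genes had higher and 4 had lower means in Hopx-null lungs, with a median log2 difference of 0.02, against 0.01 over all 18193 genes. The median size of the difference, sign ignored, was 0.10 over these 9 genes and 0.10 over all genes.

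The main fit also gave a range for each difference, for each gene alone and without Y-linked signal in the model. All 9 genes had a 95% interval that lay within a 2-fold change in either direction, at the brightest probe set. The half-width of that interval went from 0.22 for Aqp1 to 0.65 for Scnn1b on the log2 scale. At the dimmer Aqp4 probe set 1425382_a_at the interval, -1.07 to 0.11, reached beyond 2-fold. All 9 genes read above the median of all probe sets (6.69) at the brightest probe set, and 7 of them above the upper quartile (9.02). Of the 19 probe sets 15 lay above that median and 2, one of Cftr and one of Aqp4, lay below the lower quartile (4.29), where signal is close to background. With 3 against 3 lungs an exact two-sided permutation test cannot give a p below 0.1, and it gave 0.2 to 1 over the 19 probe sets. These are whole lungs, so fewer cells of a type and less RNA per cell cannot be told apart in any value below.

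**Figure D1:**
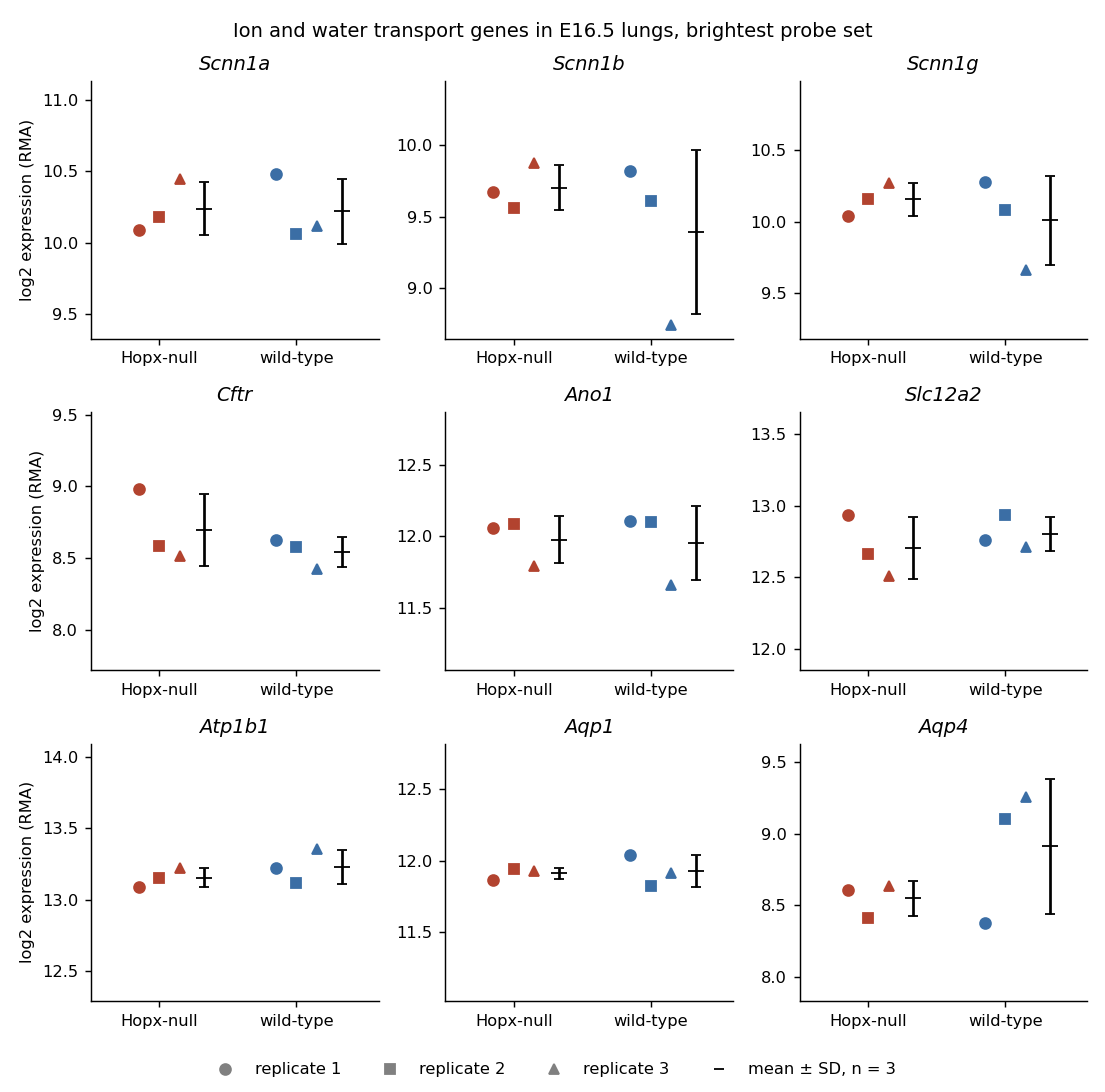
Log2 expression (RMA, vertical axes of equal length) of each of the 9 genes at its brightest probe set in 3 Hopx-null lungs (red, left) and 3 wild-type lungs (blue, right), with symbols for replicates 1 to 3 and black bars for mean ± SD (n = 3). The groups overlap for every gene, Aqp1 lies within 11.8 to 12.0 in all lungs, and wild-type replicate 3 stands low for Scnn1b (8.74).

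The sodium-absorbing channel needs its 3 subunits together for full activity. Scnn1a, the alpha subunit, without which newborn mice cannot clear their lung liquid (probe set 1425088_at), read 10.09, 10.18 and 10.45 on the log2 scale in the Hopx-null lungs, and 10.48, 10.06 and 10.12 in the wild-type lungs, in the order of replicates 1 to 3 that is kept below. The lungs of the 2 genotypes were interleaved, and both genotypes held 1 high lung. The log2 difference was 0.02 (SE 0.15, 95% interval -0.34 to 0.38), which is 1.01-fold.

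Scnn1b, the beta subunit (1418475_at), read 9.68, 9.56 and 9.87 in Hopx-null lungs, and 9.82, 9.61 and 8.74 in wild-type lungs. Wild-type replicate 3 alone was low, and the other wild-type lungs lay among the Hopx-null ones. The log2 difference of 0.31 (SE 0.27, 95% interval -0.34 to 0.96; limma, adjusted p = 0.89) therefore rested on that lung, and without wild-type replicate 3 it was -0.01. Its SD over the 6 lungs, 0.41, was above that of 94.3% of probe sets brighter than the median. Scnn1g, the gamma subunit (1419079_at), read 10.04, 10.16 and 10.27 in Hopx-null lungs, and 10.28, 10.08 and 9.66 in wild-type lungs. Wild-type replicate 3 was again the lowest lung. The log2 difference was 0.15 (SE 0.17, 95% interval -0.25 to 0.54) with all lungs and -0.02 without wild-type replicate 3.

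The mean levels of the type I, type II, mesothelial and endothelial marker lists were also lowest in wild-type replicate 3. The margin was widest for type I markers. Single genes did not all follow. Cav1 and Rtkn2 (type I), Sftpc, Sftpb, Slc34a2, Napsa and Lyz2 (type II) and Krt19 (mesothelial) were not lowest there. Neither were Pecam1, Kdr, Esam and Ramp2 of the endothelial list, and Cdh5 was highest there (10.65). The mean log2 value of the 10 type I markers was 11.33 in wild-type replicate 3, from 11.80 to 11.84 in Hopx-null lungs and 11.86 and 11.87 in the other wild-type lungs. Their summed linear signal ranged from 49448.7 to 50611.5 in Hopx-null lungs and from 38697.8 to 51939.9 in wild-type lungs, 8 of the 10 genes had higher means in Hopx-null lungs, and none lay below the lower quartile. Aqp5 and Clic5 of the type I list are also among the transport genes described further on. The 9 measured type II markers had a mean of 12.69 there, against 12.81 to 12.90 in Hopx-null lungs and 12.82 and 12.76 in the other wild-type lungs, with 8 of 9 higher in Hopx-null lungs and summed linear signals of 72673.8 to 76542.9 in Hopx-null lungs and 67769.9 to 71787.8 in wild-type lungs. The 6 mesothelial markers had a mean of 9.23 there, against 9.47 to 9.65 in Hopx-null lungs and 9.50 and 9.76 in the other wild-type lungs. Of these 6 genes 4 had higher and 2 lower means in Hopx-null lungs, and their summed linear signal ranged from 8430.2 to 9687.8 in Hopx-null lungs and from 8570.7 to 10377.9 in wild-type lungs. The lowest of these sums was that of Hopx-null replicate 1, not of wild-type replicate 3. No type II or mesothelial marker lay below the lower quartile. The 9 endothelial markers had a mean of 11.04 there, against 11.11 to 11.24 in Hopx-null lungs and 11.16 and 11.11 in the other wild-type lungs. The 12 general epithelial markers, in contrast, had their highest mean in wild-type replicate 3, 10.36, with 10.10 to 10.35 in Hopx-null lungs and 10.31 and 10.28 in the other wild-type lungs. Of these 12 genes 2 had higher and 10 lower means in Hopx-null lungs (median log2 difference -0.07), none lay below the lower quartile, and the summed linear signal ranged from 25839.2 to 30091.2 in Hopx-null lungs and from 28857.9 to 31734.8 in wild-type lungs. Nkx2-1, on that list, read 7.62, 7.38 and 7.71 in Hopx-null lungs, and 7.77, 7.81 and 7.82 in wild-type lungs, without overlap, and its difference of -0.23 (SE 0.11) did not pass (limma, adjusted p = 0.878). The part of cell content in the sodium channel values was not tested.

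Scnn1g and Scnn1b lie next to each other on mouse chromosome 7, on the same strand, with 1 annotated gene and 0 protein-coding genes between them (RefSeq, GRCm38.p6). Their upstream sequences are shown because these were the subunits that dipped together in 1 lung. Each run gives the bases before the first annotated position of the gene, 5′ to 3′ on the plus strand, from the RefSeq promoter table of build GRCm38.p6, and capitals mark GGGCGG (the GC box bound by Sp1) on either strand. The windows are chr7:121734229-121734419 for Scnn1g (191 bases) and chr7:121864788-121865037 for Scnn1b (250 bases).
Scnn1g: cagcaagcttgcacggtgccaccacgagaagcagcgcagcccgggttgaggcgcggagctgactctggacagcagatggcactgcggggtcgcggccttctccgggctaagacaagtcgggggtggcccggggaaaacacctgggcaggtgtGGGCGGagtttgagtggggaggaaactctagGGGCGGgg
Scnn1b: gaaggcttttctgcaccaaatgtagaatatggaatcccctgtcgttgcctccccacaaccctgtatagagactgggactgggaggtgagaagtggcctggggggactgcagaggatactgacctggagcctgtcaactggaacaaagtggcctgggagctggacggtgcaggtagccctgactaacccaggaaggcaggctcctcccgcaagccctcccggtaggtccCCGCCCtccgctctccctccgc
The table held 300-base windows for 6 of the 9 genes: Scnn1b, Scnn1g, Cftr, Ano1, Atp1b1 and Aqp1. GGGCGG, on either strand, was in all 6 of these windows, with 2 matches in Scnn1g, 1 in Scnn1b and 6 in Cftr, and in 35.7% of all 32851 windows. AGAACA, the glucocorticoid receptor half-site, on either strand, was in 0 of the 6 windows and in 19% of all windows. The CArG box of serum response factor, a factor that Hopx is known to inhibit in heart, was in 0 of the 6 and in 1.63% of all windows. These matches are letters in a window and were not measured as sites.

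The chloride-secreting genes were likewise not separated by genotype. Cftr, the cyclic AMP-regulated chloride channel (1420579_s_at), read 8.98, 8.58 and 8.52 in Hopx-null lungs, and 8.63, 8.58 and 8.42 in wild-type lungs. Hopx-null replicate 1 alone was high. The log2 difference was 0.15 (SE 0.14, 95% interval -0.19 to 0.49), and without Hopx-null replicate 1 it was 0.01. A further Cftr probe set (1427767_a_at) read between 2.64 and 3.10 in all lungs, below the lower quartile and so close to background.

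Ano1, the calcium-activated chloride channel of airway epithelium and smooth muscle (1459713_s_at), read 12.06, 12.08 and 11.79 in Hopx-null lungs, and 12.11, 12.10 and 11.66 in wild-type lungs. Replicate 3 was the low lung in both genotypes. Hopx-null minus wild-type came to 0.02 on the log2 scale (SE 0.16, 95% interval -0.35 to 0.39). The other Ano1 probe set (1426571_at) put wild-type replicate 3 lowest too, at 9.23, and differed by 0.09 (SE 0.23). The 7 smooth muscle markers had means of 10.12 to 10.32 in Hopx-null lungs and 10.02 to 10.36 in wild-type lungs, with 10.20 in wild-type replicate 3, and summed linear signals of 12552.9 to 13861.9 in Hopx-null lungs and 11737.7 to 14087.3 in wild-type lungs. Of these markers 4 had higher and 3 lower means in Hopx-null lungs, and none lay below the lower quartile. Ano1 dipped in the same wild-type lung as Scnn1b and Scnn1g, and Cftr was also lowest there.

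Slc12a2, the sodium-potassium-chloride cotransporter (1417622_at), read 12.94, 12.66 and 12.51 in Hopx-null lungs, and 12.76, 12.93 and 12.71 in wild-type lungs. Its 3 probe sets agreed on the lowest lung, Hopx-null replicate 3, which is the lung with the largest 3' to 5' gap in the controls. The part of RNA quality in that value was not tested. The log2 differences were -0.10 (SE 0.13), -0.21 (SE 0.17) and -0.26 (SE 0.18) at the 3 probe sets, brightest first, all with 95% intervals that included 0. Without Hopx-null replicate 3 the difference at the brightest probe set was -0.0034.

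**Figure D2:**
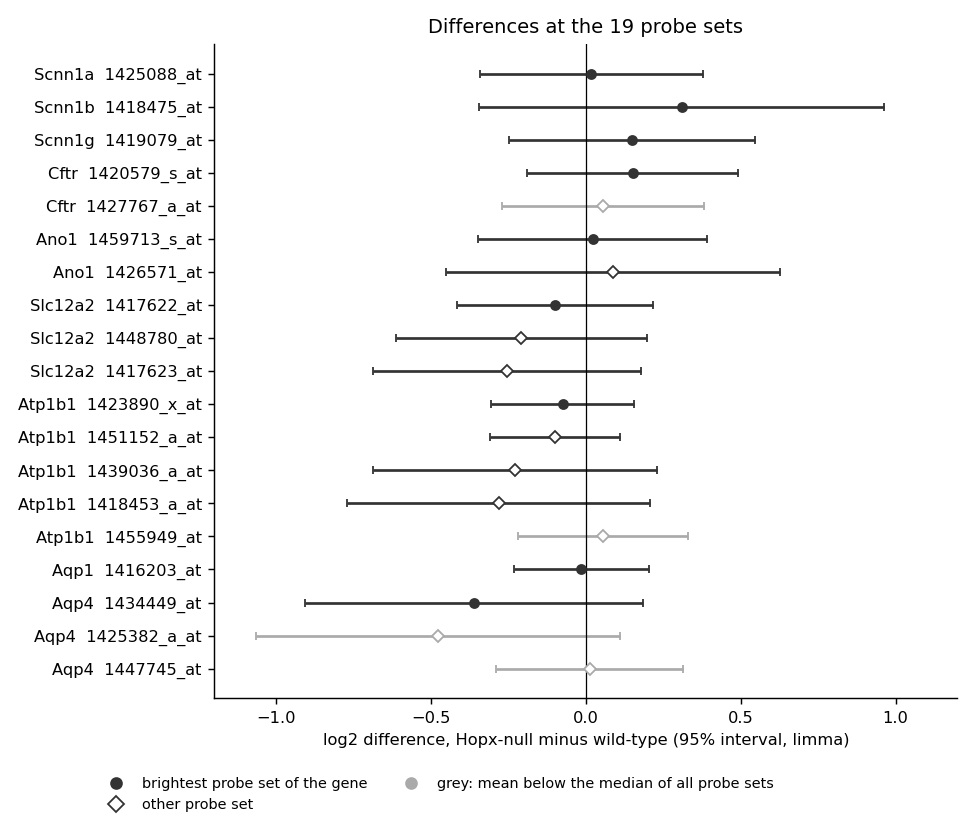
Log2 difference (Hopx-null minus wild-type, horizontal axis) with its 95% interval from limma at each of the 19 probe sets, filled circles for the brightest probe set of a gene, open diamonds for its others and grey for probe sets with a mean below the median of all. All 19 intervals cross 0, and the 3 of Slc12a2 all centre below it, as do the 4 brighter ones of Atp1b1.

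Atp1b1, the beta subunit that carries the sodium pump to the basolateral membrane, was measured by 5 probe sets. The brightest (1423890_x_at) read 13.09, 13.15 and 13.22 in Hopx-null lungs, and 13.22, 13.11 and 13.35 in wild-type lungs. At 4 of the 5 probe sets wild-type replicate 3 was the highest lung and Hopx-null replicate 1 the lowest. Their log2 differences were -0.08 (SE 0.10), -0.10 (SE 0.09), -0.23 (SE 0.19) and -0.28 (SE 0.21) from the brightest to the dimmest of these 4. The probe sets are not independent, since they read the same transcripts in the same RNA, and the brighter pair spanned a smaller range between lungs. The remaining probe set (1455949_at), below the median of all, read 4.70 to 5.05 and differed by 0.06 (SE 0.12). Atp1b1 thus stood highest in the wild-type lung in which Scnn1b, Scnn1g, Cftr and Ano1 stood lowest.

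Of the water channels, Aqp1 (1416203_at) was the steadiest of the 9 genes. It read 11.87, 11.94 and 11.93 in Hopx-null lungs, and 12.04, 11.82 and 11.91 in wild-type lungs. Between the groups the log2 difference was -0.02 (SE 0.09, 95% interval -0.23 to 0.20), which as a fold is 0.989 (95% interval 0.851 to 1.15). Blood endothelial markers, from the main cell type that expresses Aqp1 in lung, had summed linear signals of 24424.6 to 26320.9 in Hopx-null lungs and 22753.4 to 25467.5 in wild-type lungs. All 9 of them were measured, with 6 on the higher and 3 on the lower side in Hopx-null lungs and none below the lower quartile. The erythroid list varied more: its 7 measured genes summed to 1558 to 2966.6 in Hopx-null lungs and 1937.3 to 2247.5 in wild-type lungs, with Hba-a1 and Hbb-bh1 below the lower quartile in mean and 3 genes on the higher and 4 on the lower side in Hopx-null lungs. The part of endothelial and red cell content in the Aqp1 values was not tested.

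Aqp4 had the largest difference of the 9 genes at a brightest probe set. That probe set (1434449_at) read 8.61, 8.41 and 8.63 in Hopx-null lungs, and 8.37, 9.10 and 9.26 in wild-type lungs. Wild-type replicates 2 and 3 were above all 3 Hopx-null lungs, and wild-type replicate 1 was below them all. The log2 difference was -0.36 (SE 0.23, 95% interval -0.91 to 0.19; limma, adjusted p = 0.878). A dimmer probe set (1425382_a_at) gave 4.13, 4.82 and 4.50 in Hopx-null lungs, and 4.52, 5.07 and 5.30 in wild-type lungs, with the same 2 wild-type lungs highest and a difference of -0.48 (SE 0.25). The third (1447745_at) stayed between 2.90 and 3.34, below the lower quartile.

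The mean levels of the airway, cartilage and neural marker lists and of Y-linked genes were highest in the same lungs as Aqp4. Wild-type replicates 2 and 3 were the lungs with Y-linked signal. The 8 measured airway markers had a mean of 9.73 and 9.60 on the log2 scale in those lungs, against 9.20 to 9.33 in Hopx-null lungs and 9.18 in wild-type replicate 1. Of these markers 1 was higher and 7 were lower in Hopx-null lungs, none lay below the lower quartile, and the summed linear signal ranged from 31621.5 to 32591.2 in Hopx-null lungs and from 31069.4 to 36025 in wild-type lungs. Sox2, the proximal airway factor on that list, read 8.57, 7.95 and 8.02 in Hopx-null lungs, and 8.49, 9.25 and 9.10 in wild-type lungs. Krt5, Krt15, Trp63 and Scgb3a2 were also highest in wild-type replicates 2 and 3. Scgb1a1, Foxj1 and Cyp2f2 did not follow that order, and Cyp2f2 was lowest in wild-type replicate 3 (12.16). The 10 cartilage markers, a tissue of the large airways, summed to 2134.2 to 2505.5 in Hopx-null lungs and 1893.1 to 5421.3 in wild-type lungs, with means of 7.88 and 8.20 in wild-type replicates 2 and 3 against 5.50 in wild-type replicate 1. On that list 2 genes had higher and 8 lower means in Hopx-null lungs, and Matn3 lay below the lower quartile. The 6 measured neural and Schwann cell markers had means of 5.40, 5.04 and 5.86 in Hopx-null lungs, and 5.07, 5.92 and 6.37 in wild-type lungs, with 1 gene higher and 5 lower in Hopx-null lungs, none below the lower quartile, and summed linear signals of 289.8 to 433.2 in Hopx-null lungs and 335.8 to 705.8 in wild-type lungs. With Y-linked signal as a covariate the Aqp4 difference was 0.18 (SE 0.15; limma, adjusted p = 1), a fit that in effect sets the Hopx-null lungs against wild-type replicate 1. The parts of airway, cartilage and nerve content and of sex in the Aqp4 values were not tested.

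**Figure D3:**
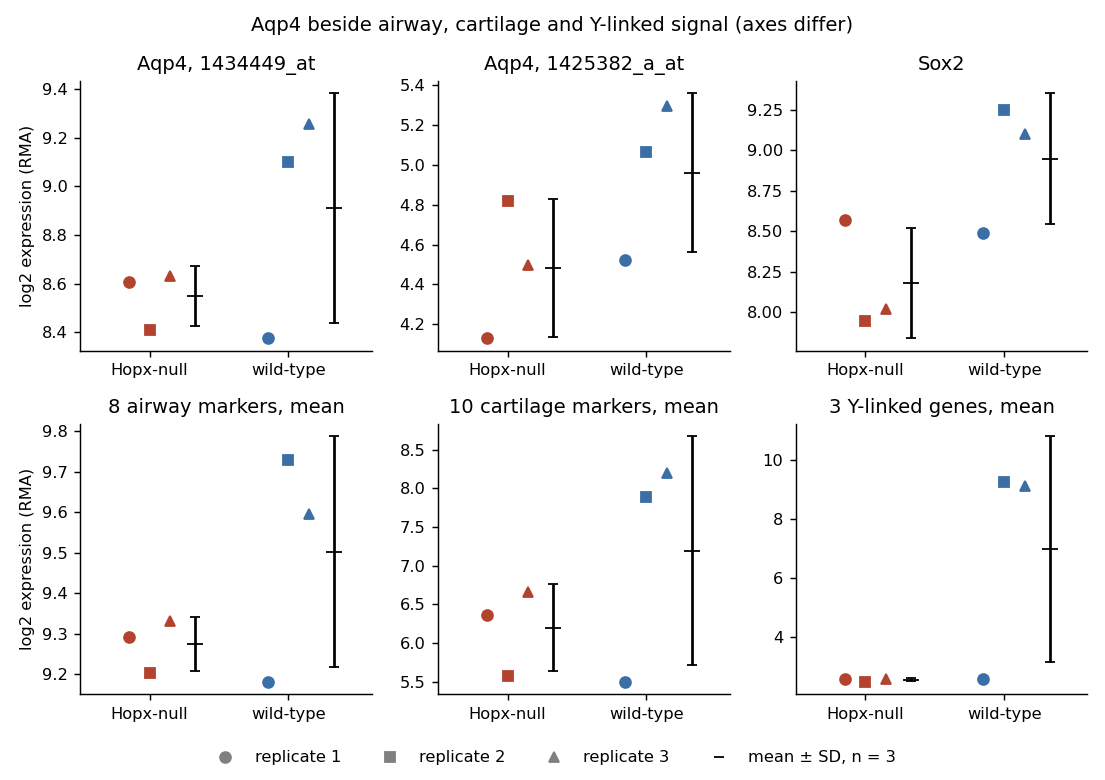
Log2 expression (RMA, axes differ between panels) of Aqp4 at 2 probe sets, of Sox2, and of the means of 8 airway markers, 10 cartilage markers and 3 Y-linked genes, in Hopx-null lungs (red, left) and wild-type lungs (blue, right), with mean ± SD in black (n = 3). In every panel wild-type replicates 2 and 3 are the highest lungs, with Aqp4 at 9.10 and 9.26 in the first panel.

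The direction of most of these differences depended on single lungs. Leaving out each lung in turn, the log2 difference stayed on 1 side of 0 for Cftr (0.01 to 0.24), Slc12a2 (-0.22 to -0.0034), Atp1b1 (-0.13 to -0.01) and Aqp4 (-0.63 to -0.19). It changed side for Scnn1a (-0.09 to 0.15), Scnn1b (-0.01 to 0.52), Scnn1g (-0.02 to 0.28), Ano1 (-0.13 to 0.11) and Aqp1 (-0.07 to 0.04). Wild-type replicate 3 was the lung whose removal turned the sign of all 3 ENaC subunits (Scnn1a to -0.03, Scnn1b to -0.01, Scnn1g to -0.02) and of Ano1 (to -0.13) together. No gene passed in any of these fits (limma, Benjamini-Hochberg).

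**Figure D4:**
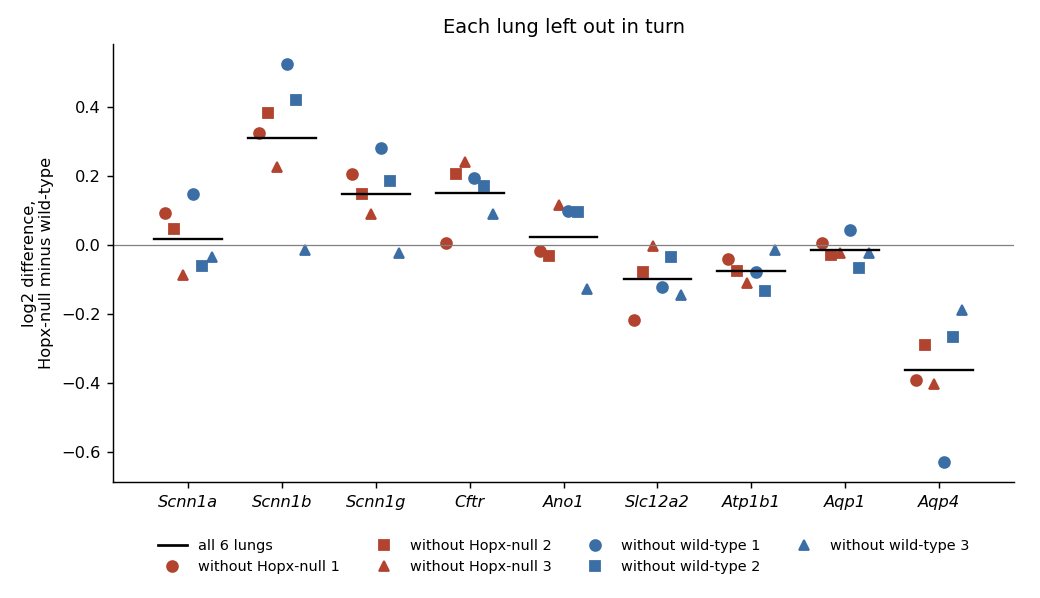
Log2 difference (Hopx-null minus wild-type, vertical axis) of each of the 9 genes with all 6 lungs (black line) and with 1 lung left out (red for Hopx-null, blue for wild-type, symbols for the replicate). Scnn1b spans -0.01 to 0.52 and Aqp4 -0.63 to -0.19, the widest spans of the 9.

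Some genes followed the same profile over the 6 lungs. Likeness was the mean absolute difference between log2 profiles centred on their own means, over the 6 lungs, among genes brighter than the median and at least as variable as the gene in question. The closest to Aqp4 were Ptn (0.08), which encodes the growth factor pleiotrophin, and Sorbs2 (0.08). The closest to Scnn1b were Mettl24 (0.07) and Mvd (0.09), an enzyme of cholesterol synthesis. The closest to Scnn1g were Cers4 (0.04) and Faah (0.04), to Scnn1a Arhgap8 (0.03) and Gpr146 (0.04), to Cftr Rab19 (0.04) and Epha7 (0.05), to Ano1 Guk1 (0.02) and Stard4 (0.04), to Slc12a2 Fzd7 (0.02) and Zfp266 (0.03), to Atp1b1 Sav1 (0.02) and Prr14 (0.02), and to Aqp1 Ginm1 (0.01) and Rbm33 (0.02). With between 595 and 9515 genes searched for each over 6 lungs that share 1 array platform, these are descriptions of 6 lungs.

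Other genes of the same transport processes were not called either. Of 139 listed genes, 120 were measured by a probe set of their own and 0 passed limma (Benjamini-Hochberg), while 6 had an unadjusted p under 0.05, which is a share near the 4.77% of all probe sets. Of the 120 genes 58 had higher and 62 lower means in Hopx-null lungs, with a median log2 difference of -0.01.

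Among sodium channel regulators, 5 of 15 measured genes were higher and 10 lower (median -0.02). Sgk1, the kinase through which steroid hormones raise ENaC at the surface, differed by -0.08 (95% interval -0.37 to 0.22), and Prss8, a protease that activates ENaC, by 0.03 (95% interval -0.27 to 0.34). Nedd4l, the ubiquitin ligase that removes ENaC, differed by -0.18 (95% interval -0.56 to 0.20), and its 6 probe sets all had differences below 0. Stk39, a kinase that activates Slc12a2, read 9.70, 9.92 and 10.18 in Hopx-null lungs, and 9.82, 9.63 and 10.84 in wild-type lungs. The wild-type lung that was low for Scnn1b was thus the highest for Stk39, whose difference was -0.17 (SE 0.32). Dimmer Stk39 probe sets, with the same lung highest, differed by -0.12 (SE 0.41) and -0.64 (SE 0.28), so the size of its difference depended on the probe set. Tmprss4, another ENaC-activating protease, differed by -0.16 (SE 0.22).

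Among sodium pump subunits and Fxyd proteins, small regulators of the pump, 5 of 10 were higher and 5 lower (median -0.01). Atp1b3, another beta subunit, differed by 0.11 (95% interval -0.09 to 0.32). Fxyd5 read 11.76, 11.76 and 11.65 in Hopx-null lungs, and 11.98, 11.79 and 12.10 in wild-type lungs. The groups did not overlap, and the difference of -0.23 (SE 0.11; limma, adjusted p = 0.878) did not pass. Fxyd4 and Fxyd6 differed by 0.24 (SE 0.25) and -0.19 (SE 0.14).

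Among other chloride and anion channels and exchangers, 20 of 36 were higher and 16 lower (median 0.04). Clcn6, an endosomal chloride-proton exchanger, differed by 0.44 (SE 0.17), Best1, a calcium-activated anion channel, by 0.28 (SE 0.10) and Slc4a1, the anion exchanger of red cells, by -0.43 (SE 0.22). Each had adjusted p = 0.878 (limma, Benjamini-Hochberg). Slc4a1 is itself 1 of the 7 measured genes of the erythroid list given above. Clcn2, a chloride channel of fetal lung epithelium, differed by 0.11 (95% interval -0.14 to 0.36). Of the other cation-chloride cotransporters 5 of 7 were higher (median 0.04), with Slc12a5 at 0.36 (SE 0.16), Slc12a9 at 0.16 (SE 0.11) and Slc12a7, a potassium-chloride exporter, at 0.15 (SE 0.09). The dimmer Slc12a5 probe set differed by -0.04.

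The smallest unadjusted p of the 120 genes, 0.0084 (limma), was at Kcnq1, the potassium channel whose current holds the membrane voltage that drives chloride out of secreting epithelia. Kcnq1 read 8.25, 8.28 and 8.52 in Hopx-null lungs, and 8.02, 7.99 and 7.79 in wild-type lungs. All Hopx-null lungs were above all wild-type lungs. Their log2 difference was 0.42 (SE 0.11, 95% interval 0.15 to 0.69) and did not pass (limma, adjusted p = 0.878). Kcne3, its beta subunit in secreting epithelia, differed by 0.34 (SE 0.16) with overlapping groups, and Kcnma1 by 0.32 (SE 0.31). Over the 10 potassium channel genes 5 were higher and 5 lower (median -0.0003).

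Of 14 proton and bicarbonate genes 8 were higher and 6 lower (median 0.03), with Slc4a5 at 0.27 (SE 0.14), Atp12a, a proton pump, at 0.22 (SE 0.16) and Car2, a carbonic anhydrase, at 0.21 (SE 0.19). Of the other water channels 3 of 10 were higher (median -0.06), and only Aqp5, the apical channel of type I cells, lay above the median of all probe sets, with a difference of 0.18 (95% interval -0.19 to 0.55). Of 18 hormone and nucleotide receptors and their enzymes 7 were higher and 11 lower (median -0.07). Nr3c1, the glucocorticoid receptor, differed by 0.01 (95% interval -0.23 to 0.25). Hsd11b2, which inactivates glucocorticoid, read 7.54, 7.21 and 7.00 in Hopx-null lungs, and 6.92, 7.21 and 6.21 in wild-type lungs, so that wild-type replicate 3 was once more the low lung, and differed by 0.47 (SE 0.27). Ptger2, a prostaglandin receptor, differed by -0.49 (SE 0.33) and Pde4b, a cyclic AMP phosphodiesterase, by 0.26 (SE 0.23). Casr, the calcium-sensing receptor that regulates fetal lung liquid in mouse, was singled out after its values were seen: it differed by -0.35 (SE 0.11, limma unadjusted p = 0.0145) with a mean of 4.48, close to the lower quartile.

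**Figure D5:**
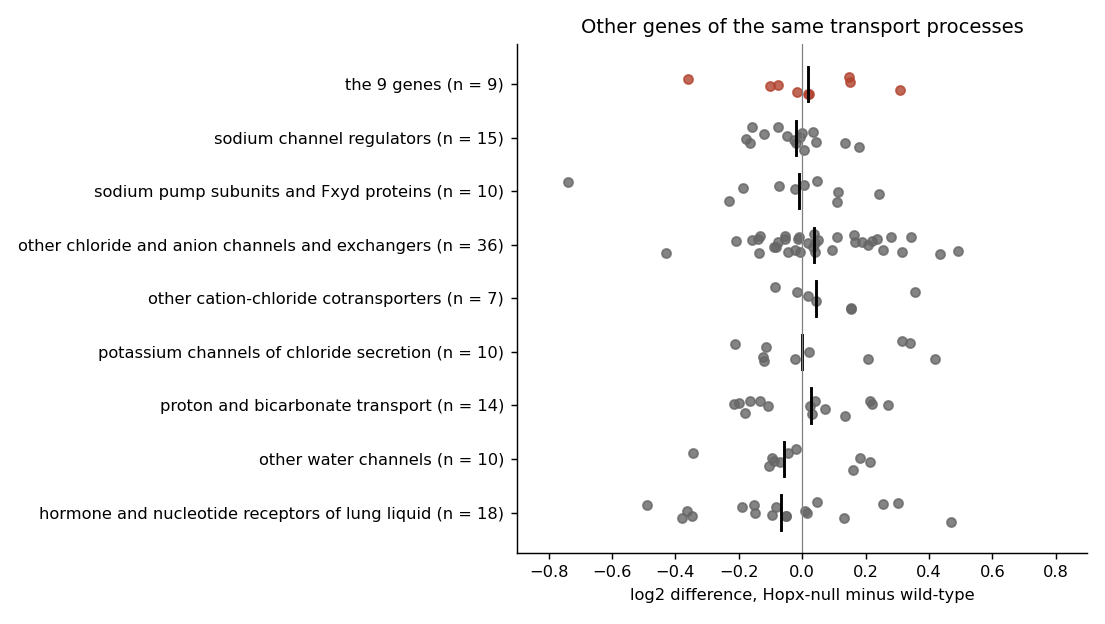
Log2 difference (Hopx-null minus wild-type, horizontal axis) of the 9 genes (red) and of 120 other genes in 8 lists of the same transport processes (grey), 1 point per gene by its brightest probe set, with a black bar at each median. The medians lie between -0.07 for hormone and nucleotide receptors and 0.04 for the other chloride and anion genes and for the cotransporters.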

How the data were processed

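The authors deposited 1 table of 45101 probe sets in 6 samples. Its values were read as log2 expression: per the submitters' processing notes RMA and Partek 6.6 were involved, in roles not given, and no header states the log base, which was inferred from the range of the deposited values. Since RMA gives all arrays the same distribution, a change common to most transcripts would be lost. After removal of 64 control probe sets, 45037 were tested, dim ones included. GEO's platform annotation gave 34945 of them 1 gene, 932 several and 9160 none. Each gene was represented by its probe set with the highest mean.

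The comparison of Hopx-null with wild-type lungs used limma 3.58.1 (R 4.3.3, lmFit and eBayes), with Benjamini-Hochberg adjustment over all probe sets, a threshold of 0.05 and 95% intervals from the same fit. The procedure was tested on simulated data. Precision is limited by the number of arrays. The p-values set the difference between groups against the spread between these samples, whether single lungs or pools. No pair of arrays shared more than 0.313% of identical values. The 9 genes, the lists and the tests were chosen with earlier results of these data known. Named genes were the 9, the companion genes with the 3 largest differences per list among those above the median of all probe sets, and 10 genes named in every case, of which 8 were measured and the others are not analysed here. Alternatives were repeated quantile normalization, a filter on dim probe sets, trend and robust options, weighting of arrays, a block for the replicate number, a Y-linked covariate, other choices of probe set and each sample left out.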

Additional observations from a re-analysis of the deposited data

How the results depend on the processing

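No probe set of the 9 genes and none of the 120 companion genes passed limma under any alternative run, and the lowest adjusted p of the 9 genes was 0.704 (limma, Benjamini-Hochberg). Over 13 alternatives 100 of 117 gene-level differences kept their sign and 17 turned it, all between sizes too small to pass. Many of those kept could not have turned. The filter on dim probe sets, the trend and robust options and the replicate block leave every difference as it was. The mean of all probe sets does so for Scnn1a, Scnn1b, Scnn1g and Aqp1, each read by 1 probe set. With array weights Scnn1a was -0.038, and with quantile normalization repeated Aqp1 was 0.0058. With Y-linked signal as a covariate Scnn1a was -0.24, Scnn1b -0.11, Scnn1g -0.12, Ano1 -0.13 and Aqp4 0.18; only 2 wild-type lungs carry that signal. Leaving out 1 lung gave ranges of -0.087 to 0.15 for Scnn1a, -0.015 to 0.52 for Scnn1b, -0.025 to 0.28 for Scnn1g, -0.13 to 0.11 for Ano1 and -0.067 to 0.043 for Aqp1. The count over all probe sets, 2, became 1 with the replicate block and 1 with the Y-linked covariate, and ranged from 1 to 23 with 1 lung left out (12 without Hopx-null replicate 1, 23 without wild-type replicate 1). The cause of these changes was not tested. Deviations from the group mean had correlations of -0.13, -0.13 and 0.23 for same-numbered lungs, and of -0.20 to 0.28 for lungs of unlike number. With so few lungs this cannot settle whether the numbers mark a pairing. Under the block the differences of the 9 genes equal those of the main comparison by construction, because each block holds 1 lung of each genotype. Only the SE and p could change there. Dim probe sets, 4 of the 19, limit what can be read for Cftr and Aqp4 beyond their brightest probe set.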
